A study of Mus musculus with 10 samples.

Results

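The late phase of the serum response, from 30 to 90 min, was compared gene by gene between Med23 knockout (KO) and wild-type (WT) mouse embryonic fibroblasts (MEFs). The late change is the level at 90 min minus the level at 30 min on the log2 scale, and the late difference is the late change in KO MEFs minus that in WT MEFs. A positive late difference marks a gene that fell less or rose more in KO MEFs. It was formed from 4 of the 10 arrays of the series: Med23KO cells after 30 and 90 min of serum, and wild type cells after 30 and 90 min of serum. The arrays of both genotypes without serum (0 min) give each gene's starting level. Both genotypes were cultures of MEFs from embryos of day 9.5 that had immortalised spontaneously. The labels describe no second line of either genotype, so genotype and line cannot be told apart. By its title the series asked about Med23 in the choice between smooth muscle and fat cells, and its 4 arrays of 10T1/2 cells entered only the choice of 1 probe set per gene. Each condition had 1 array, so no late difference has a replicate check and no p-value is given. Here "rose" and "fell" state the direction between 2 arrays, and a gene was counted where the size of its difference was at least 1, a factor of 2.

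Serum given to resting fibroblasts starts a timed programme. Immediate-early genes are switched on by transcription factors that are already present, among them SRF with its partners, and many of their short-lived mRNAs decline once feedback genes for phosphatases, repressors and mRNA decay factors are made. Secreted factors, cytoskeletal genes and growth genes follow. Med23 is a subunit of Mediator, which links such transcription factors to RNA polymerase II, and it is known as the subunit through which the SRF partner Elk1 acts.

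For Med23 (1452064_at) the KO MEFs gave 3.30 and 2.91 at 30 and 90 min, both under the array median, where the WT MEFs gave 7.39 and 6.90, as the genotype labels say. Array medians of the 4 arrays lay between 3.86 and 3.92 on the log2 scale. The WT array of 90 min stood apart in the 18S ribosomal RNA controls. Their 3' probe set read 12.51, 11.95 and 11.87 in KO MEFs at 0, 30 and 90 min, and 11.35, 11.35 and 13.20 in WT MEFs. The late difference of the 3 probe sets ran from -1.93 to 0.03, while the 18 hybridisation spike-ins ran from -0.34 to 0.22 and the 27 poly-A spike-ins from -0.75 to 0.46. The part of this array's quality in the results was not tested. No late difference exists without that array. The late changes of KO MEFs are formed without it, but how the arrays were normalized to each other is not stated, so a link through normalization remains possible. Of 13 fibroblast markers, 11 were tested and none reached a late difference of 1 in either direction, with a median of 0.08, and their median level was 12.12 in KO and 12.70 in WT MEFs at 90 min. Of 37 measured markers of 5 other cell types, 22 lay below the array median on all 6 MEF arrays, and 15 were tested. Of these 15, the 3 past the threshold were Cd14, Flt1 and Sox2.

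A gene was tested when its level exceeded 3.89, the median of all probe sets on the 4 arrays, on at least 1 of them, which left 11800 of 18193 genes. The late difference reached at least 1 in 384 genes (3.25%) and -1 or less in 328 genes (2.78%). It reached 2 in 38 genes (0.322%) and -2 in 25 genes (0.212%). Its median was 0.09, and 71.1% of genes lay within 0.5 of zero. The balance of the directions depended on centring: with the median late change subtracted in each genotype, 283 genes lay at 1 or above and 433 at -1 or below. The late change itself was at least 1 upward in 257 genes in KO MEFs (2.18%) and 244 in WT MEFs (2.07%). It was at least 1 downward in 653 (5.53%) and 877 (7.43%). The median late change was -0.08 in KO and -0.18 in WT MEFs. From 30 to 90 min the upper quartile of the array went from 6.64 to 6.49 in KO and from 6.64 to 6.4 in WT MEFs. The part of this shift in the counts was not tested. Genes that fell in both genotypes numbered 278, which is 42.6% of those that fell in KO MEFs and 31.7% of those that fell in WT MEFs. Across genes, which are not independent replicates, the late changes of KO and WT MEFs correlated with r = 0.567. Nearest to the threshold, Ankrd28 stood just inside at 1.0 and Eefsec just outside at 0.99, and Arid4b at -1.0 and Afap1l2 at -0.99 on the other side.

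**Figure D1:**
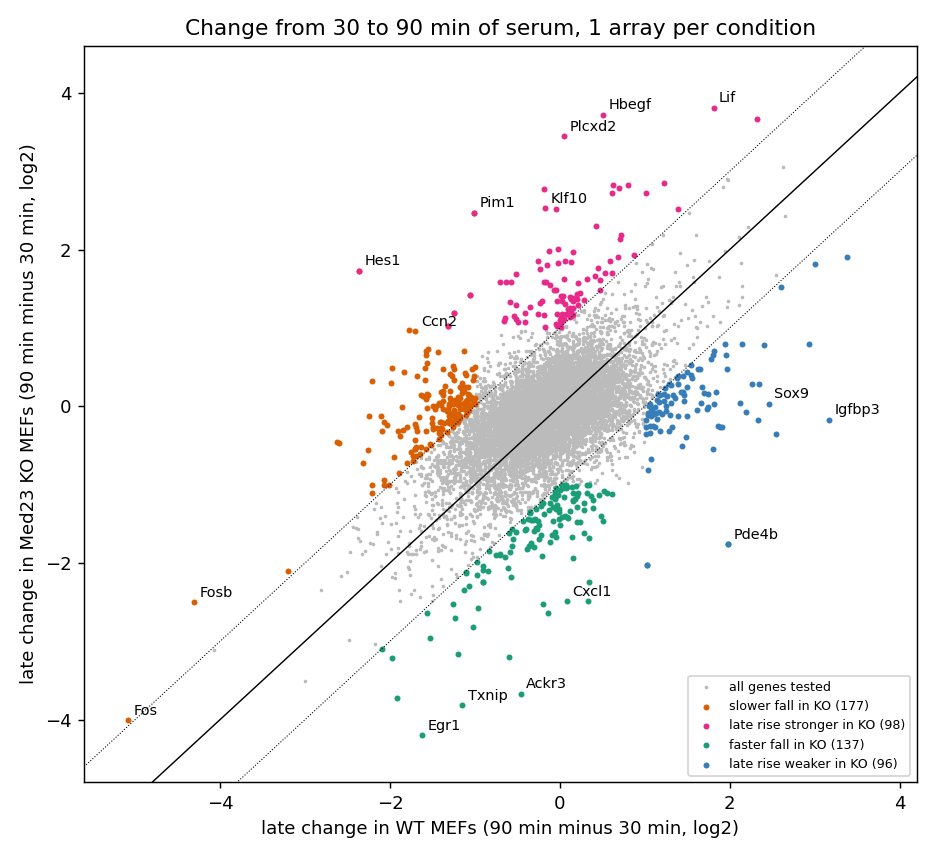
The late change (90 min minus 30 min, log2) is plotted for each of 11800 genes, in KO MEFs on the vertical and WT MEFs on the horizontal axis, with 1 array per condition. The solid line marks equal change and the dotted lines a late difference of 1 and -1. Colours mark 4 classes of genes, a gene of 2 classes takes the colour of the rise, and Hes1 lies farthest above the line and Pde4b farthest below.

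Genes were sorted by the shape of their late change. A slower fall in KO was counted where WT fell by at least 1 and the late difference was at least 1, a faster fall where KO fell by at least 1 and the late difference was -1 or less. Late rises of at least 1 in KO or in WT were sorted the same way into a stronger or a weaker late rise in KO. The 4 classes held 177 (1.5%), 137 (1.16%), 98 (0.831%) and 96 (0.814%) of the genes, in that order, and a gene could belong to 2. Another 114 genes past the threshold upward and 97 downward fitted none, because neither genotype's own late change reached 1 in the direction that a class asks for. A late difference equals the KO minus WT gap at 90 min minus that at 30 min. Among the 384 higher genes the gap exceeded 1 at 30 min only in 127, at 90 min only in 100 and at neither time in 86. Among the 328 lower genes these counts were 84, 86 and 88.

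The late response of Hes1 ran opposite ways in the 2 genotypes. Hes1, a transcriptional repressor and target of Notch signalling (1418102_at), measured 4.93, 6.49 and 8.22 at 0, 30 and 90 min in KO MEFs, compared with 6.58, 9.53 and 7.17 in WT MEFs. It was still rising in KO MEFs when it had passed its peak in WT MEFs. Its late difference of 4.09, a 17.0-fold ratio of the late folds, was the largest of all genes tested. Dtx4, a ubiquitin ligase of Notch signalling (1436545_at), read 5.82, 6.13 and 7.32 in KO MEFs and 9.05, 8.78 and 7.53 in WT MEFs, a late difference of 2.44 (2.10 on another probe set). The kinase gene Pim1 (1435458_at) had 4.42, 4.80 and 7.27 in KO MEFs against 6.95, 7.57 and 6.56 in WT MEFs. Its late difference was 3.48, and 2.21 on another probe set. All 3 were lower in KO MEFs at 0 and 30 min, and the KO minus WT gap at 90 min was 1.05 for Hes1, -0.21 for Dtx4 and 0.71 for Pim1.

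Among the 177 genes with a slower fall in KO, the median late change was -0.03 in KO and -1.37 in WT MEFs, and 7 also fell by at least 1 in KO MEFs. The gaps between the genotypes at 30 and 90 min are the terms of the late difference that chose each class, so their counts describe the choice and support nothing. At 30 min KO MEFs stood lower by at least 1 in 83 of the 177 and higher in 12, against 1136 and 1009 of all 11800 genes. By 90 min they stood lower in 19 and higher in 70, against 1003 and 1211 of all genes. In WT MEFs, 104 of the 177 ended at least 1 below their 0 min level. The late fall in WT MEFs chose these genes, so this count also describes the choice, and no share of all genes is given for it. Ccn2, the matricellular protein CTGF (1416953_at), read 9.31, 11.07 and 12.03 in KO MEFs against 9.35, 10.67 and 8.97 in WT MEFs. Both genotypes started alike and induced it, and then WT returned to its starting level where KO rose further, a late difference of 2.66. The transcription factor gene Osr1 (1449350_at) had 8.59, 8.18 and 9.15 in KO MEFs and 7.04, 7.11 and 5.33 in WT MEFs, a late difference of 2.75. Cdc42ep2, an effector of the GTPase Cdc42 (1428750_at), had 8.31, 8.37 and 8.69 in KO MEFs and 6.85, 7.69 and 5.48 in WT MEFs. In WT MEFs both fell, while in KO MEFs Osr1 gained 0.97 and Cdc42ep2 0.32, so that KO ended more than 3 above WT in each. Chac1, a glutathione-degrading enzyme and ATF4 target (1451382_at), stood at 4.90, 6.56 and 7.98 in KO MEFs against 8.03, 9.15 and 8.09 in WT MEFs, with a late difference of 2.48. For Ppargc1a, the metabolic coactivator PGC-1alpha (1437751_at), KO MEFs stayed below the array median with 3.28, 3.16 and 3.65, while WT MEFs read 5.75, 6.09 and 4.11. A fall could not show at such KO levels, and the gene passed the filter through WT alone. Its late difference of 2.47 became 2.02 with levels below the median raised to it, and ranged from 0.18 to 2.13 on its other probe sets.

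For the stronger late rises in KO, too, the gaps are part of the choice. Of the 98, KO MEFs stood lower by at least 1 in 51 at 30 min and in 16 at 90 min. Over all 11800 genes these counts were 1136 and 1003. The median late change of the 98 was 1.46 in KO and 0.03 in WT MEFs. In WT MEFs 5 of the 98 rose by at least 1 as well. At 90 min 88 of the 98 stood at least 1 above 0 min in KO MEFs, and 24 in WT MEFs. The late rise in KO MEFs chose these genes, so the KO count is part of the choice too. No share of all genes is given beside the 88 and 24. Hbegf, a ligand of the EGF receptor (1418350_at), read 3.71, 7.08 and 10.80 in KO MEFs and 8.76, 11.98 and 12.49 in WT MEFs. WT had nearly reached its 90 min level by 30 min, while KO gained 3.72 in the late phase, and the late difference was 3.21 (3.10 on another probe set). Ptger4, the prostaglandin E2 receptor EP4 (1424208_at), stood at 4.10, 6.07 and 8.84 in KO MEFs against 8.0, 10.55 and 10.36 in WT MEFs, a late difference of 2.96 (2.97 on another probe set). The transcription factor gene Klf10 (1416029_at) went through 5.07, 6.92 and 9.45 in KO MEFs and 6.04, 9.02 and 8.85 in WT MEFs. Klf10 ended higher in KO than in WT MEFs, with a late difference of 2.70. Dusp14, a phosphatase gene (1431422_a_at), had 4.29, 4.89 and 7.41 in KO MEFs and 7.22, 7.53 and 7.48 in WT MEFs, a late difference of 2.57. Plcxd2 (1455324_at) read 4.46, 4.42 and 7.87 in KO MEFs and was flat in WT MEFs, with 5.01, 4.85 and 4.90. Its late difference was 3.40, and 2.02 on another probe set.

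**Figure D2:**
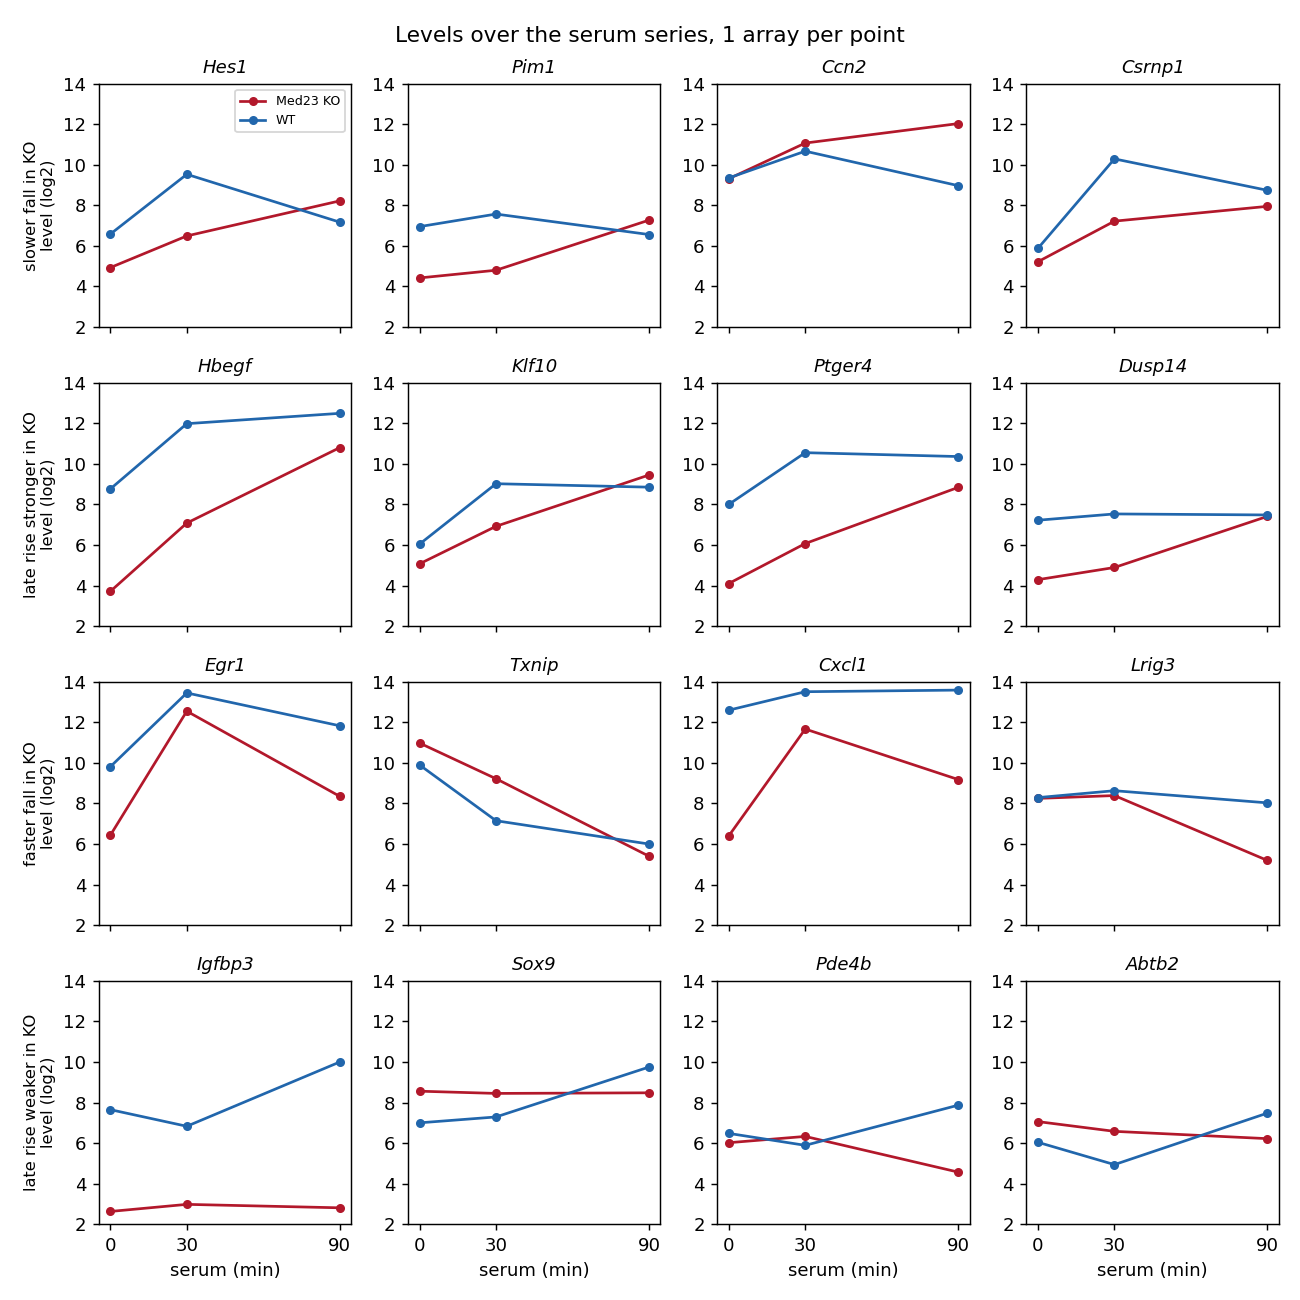
Levels (log2) of 16 genes are plotted against serum time in minutes, red for Med23 KO and blue for WT, with 1 array per point and 1 class of genes in each row. Hbegf climbs from 30 to 90 min in KO while WT is nearly flat, and Egr1 drops to 8.35 in KO and to 11.83 in WT.

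Genes induced early in both genotypes were followed from 30 to 90 min. They were the 110 genes at least 1 higher at 30 than at 0 min in KO and in WT MEFs, with a median early rise of 1.94 in KO and 1.62 in WT MEFs. Their median late change was 0.08 in KO and -0.54 in WT MEFs. By 90 min 25 of them had fallen by at least 1 in KO and 36 in WT MEFs, 17 of them in both. At 90 min 94 stood at least 1 above their 0 min level in KO MEFs, and 72 in WT MEFs. A level at 90 min above that at 30 min was found in both genotypes for 31 genes, in KO only for 27, in WT only for 7 and in neither for 45. The late difference was at least 1 in 30 of the 110 (27.3%, against 3.25% of all genes) and -1 or less in 8 (7.27%, against 2.78%). It was above 0 in 81 of the 110 and in 57.6% of all genes, and its median was 0.55. The 110 genes were chosen with the same 30 min arrays that enter the late change, so a high reading there lowers it in either genotype, and these shares carry no test. The 0 min arrays enter both the choice and the counts of 94 and 72. For these counts, and for those of levels higher at 90 than at 30 min, no share of all genes is given.

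**Figure D3:**
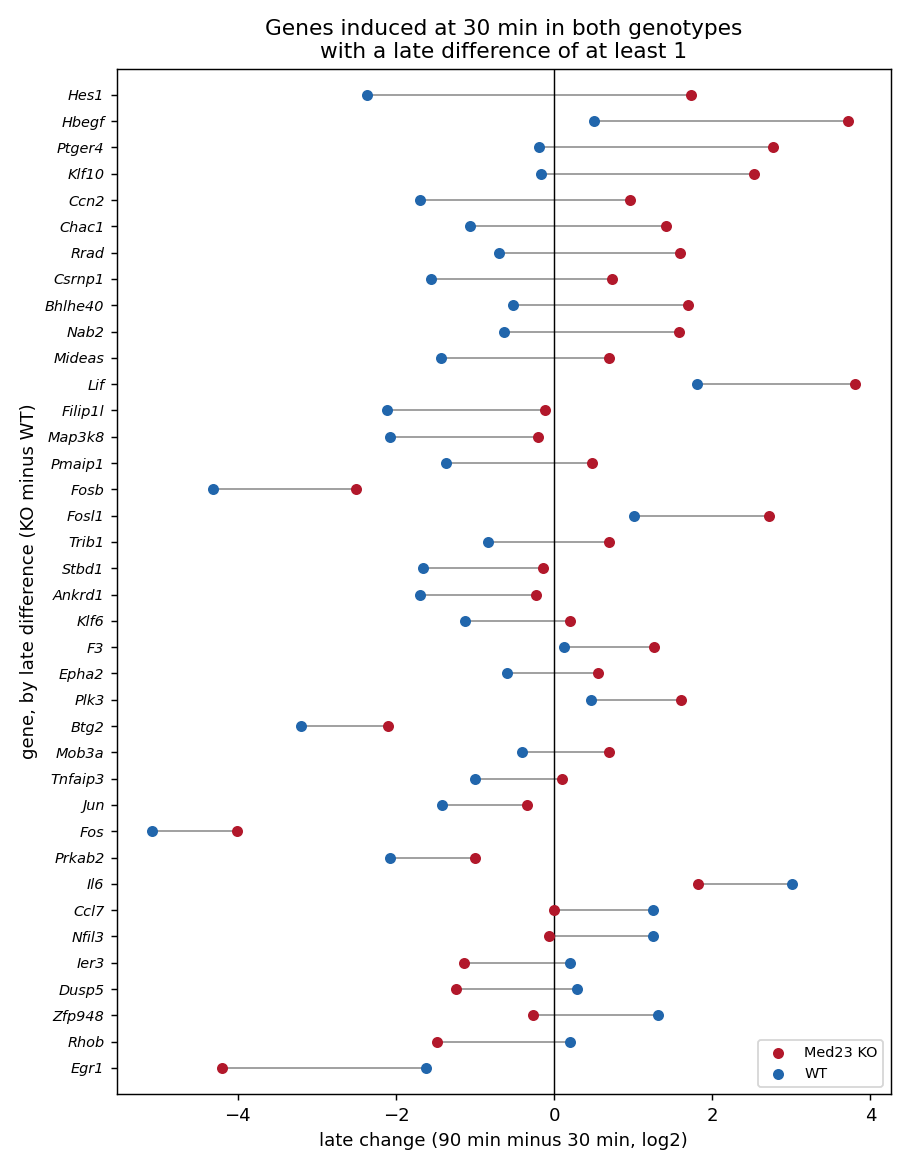
The late change (90 min minus 30 min, log2) is plotted for the 38 genes induced at 30 min in both genotypes with a late difference of at least 1 in size, red points for Med23 KO and blue points for WT. The red point lies to the right of the blue point in 30 genes and to the left in 8, with Egr1 lowest.

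Egr1 went against most early genes. This zinc finger transcription factor of the first serum wave (1417065_at) stood at 6.43, 12.55 and 8.35 in KO MEFs and at 9.81, 13.45 and 11.83 in WT MEFs. KO MEFs lost 4.2 of the log2 level in an hour and WT MEFs 1.62, a late difference of -2.58. Rhob, a small GTPase gene (1449110_at), read 9.20, 11.15 and 9.67 in KO MEFs and 8.38, 9.97 and 10.17 in WT MEFs. Ier3, an early response gene for a survival protein (1419647_a_at), read 9.80, 12.38 and 11.24 in KO MEFs and 11.19, 13.58 and 13.78 in WT MEFs. In Rhob and Ier3 the WT level held at 90 min while the KO level declined, with late differences of -1.68 and -1.34. The other early genes at -1 or less were Dusp5, Zfp948, Nfil3, Ccl7 and Il6, from -1.59 to -1.19.

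In the class of faster falls the median late change was -1.48 in KO and -0.11 in WT MEFs, and 15 of the 137 genes fell by at least 1 in WT MEFs too. Of the 137, 8 had risen by at least 1 at 30 min in KO MEFs and 5 in WT MEFs, against 218 and 195 of all 11800 genes. The 30 min arrays enter both these early rises and the choice of the class, so the counts support nothing. As the choice of the class favours, KO MEFs stood higher by at least 1 in 63 at 30 min and in 16 at 90 min. Over all 11800 genes these counts were 1009 and 1211. At the end 99 of the 137 were at least 1 below their 0 min level in KO MEFs, a count that the choice by KO fall favours as well. No share of all genes is given for that count. Txnip, an arrestin-like inhibitor of glucose uptake that serum switches off (1415996_at), had 10.98, 9.22 and 5.40 in KO MEFs and 9.90, 7.15 and 6.0 in WT MEFs. Most of the fall came before 30 min in WT and after 30 min in KO MEFs, and the late difference was -2.67 (-2.49 on another probe set). Lrig3, a leucine-rich repeat membrane protein gene (1430554_at), was alike in both genotypes at first, with 8.25, 8.39 and 5.19 in KO MEFs and 8.29, 8.63 and 8.03 in WT MEFs. The genotypes parted at 90 min, for a late difference of -2.60 and of -2.07 on another probe set. Ackr3, a scavenging receptor of the chemokine CXCL12 (1417625_s_at), read 8.01, 7.04 and 3.37 in KO MEFs and 3.12, 3.67 and 3.21 in WT MEFs. Rspo3, a secreted Wnt agonist gene (1455607_at), read 8.0, 8.08 and 5.83 in KO MEFs and 3.24, 3.24 and 3.58 in WT MEFs. Zfp810, a zinc finger gene (1451566_at), read 6.48, 6.36 and 3.87 in KO MEFs and 3.44, 3.14 and 3.47 in WT MEFs. These 3 genes lay below the array medians in WT MEFs, where no fall could show. With low levels raised to the medians their late differences were -3.18, -2.29 and -2.5.

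Some genes rose late in WT MEFs and stayed level in KO MEFs. Of the 96 genes with a weaker late rise in KO, 4 also rose by at least 1 in KO MEFs, and the median late change was 0.04 in KO and 1.44 in WT MEFs. At 90 min 70 of the 96 stood at least 1 above 0 min in WT MEFs and 11 in KO MEFs. The late rise in WT MEFs chose these genes, so the WT count describes the choice. No share of all genes is given beside the 70 and 11. Igfbp3, which encodes a binding protein of insulin-like growth factors (1423062_at), read 2.63, 2.98 and 2.81 in KO cells, all under the medians, and 7.65, 6.83 and 10.00 in WT MEFs. Its late difference was -3.34, -3.13 with low levels raised and -3.27 on another probe set. Sox9, a transcription factor of cartilage formation (1451538_at), stayed at 8.56, 8.45 and 8.48 in KO MEFs where WT MEFs read 7.0, 7.29 and 9.75. Sox9 thus stood higher in KO before the late phase and lower after it, with a late difference of -2.43 (-2.32 on another probe set). Pde4b, a phosphodiesterase that degrades cyclic AMP (1422473_at), had 6.02, 6.33 and 4.57 in KO MEFs and 6.48, 5.89 and 7.87 in WT MEFs. Its late difference of -3.74 was the lowest of all genes tested, and its other probe sets gave -3.84 and -0.76. Abtb2 (1433453_a_at) had 7.06, 6.58 and 6.22 in KO MEFs and 6.04, 4.94 and 7.48 in WT MEFs, a late difference of -2.90 (-2.10 on another probe set). The beta-tubulin gene Tubb2b (1452679_at) lay below the medians in KO MEFs, with 3.21, 3.59 and 3.52, and read 4.54, 4.40 and 6.59 in WT MEFs. Other probe sets did not bear out 3 further genes: Prag1 (-2.5) gave -0.11, Pnrc2 (-3.06) gave -0.60, and Mfsd13a (-2.34) gave -0.46 and -0.52. This class rests on the WT array of 90 min, on which the 18S 3' control was also 1.85 higher than at 30 min, and the part of that in the class was not tested.

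Grouped by function, the first list held immediate-early transcription factor genes and also Ier3, the gene for a survival protein, which is 1 of its 3 lower members. Of 28 tested, 9 had a late difference of at least 1 (32.1%, against 3.25% of all genes) and 3 of -1 or less (10.7%, against 2.78%), with a median of 0.42, against 0.09 over all genes. The same shares of all genes, 3.25% upward and 2.78% downward, are the background of each further list. Fos, a component of AP-1 (1423100_at), read 6.63, 13.03 and 9.02 in KO MEFs and 5.99, 12.24 and 7.16 in WT MEFs. Fosb (1422134_at) read 3.43, 9.58 and 7.08 in KO MEFs and 3.15, 9.99 and 5.68 in WT MEFs. Both declined steeply in both genotypes and kept more of the peak in KO MEFs, with late differences of 1.07 and 1.81. Jun (1417409_at), their partner, read 4.62, 11.02 and 10.68 in KO MEFs and 7.69, 11.39 and 9.97 in WT MEFs. Fosl1, a later member of the family (1417487_at), read 3.62, 8.03 and 10.75 in KO MEFs and 5.33, 8.89 and 9.90 in WT MEFs. Its late difference was 1.71, and that of Jun 1.08. With late changes centred on their medians Fos came to 0.97 and Jun to 0.98, so both calls were lost. The call of Fos was also lost with cyclic loess (0.99). Myc, the growth regulator (1424942_a_at), had a late change of 1.07 in KO and -0.41 in WT MEFs, and Bhlhe40, a repressor of the bHLH family (1418025_at), 1.69 and -0.52. Csrnp1 (1434350_at) read 5.22, 7.22 and 7.95 in KO MEFs and 5.88, 10.29 and 8.74 in WT MEFs, though its late difference of 2.28 was 0.03 on another probe set. Egr4 (1449977_at) was induced in KO MEFs, with 4.24, 8.88 and 8.29, and read 4.61, 4.72 and 5.18 in WT MEFs, a late difference of -1.05. Of the regulators named by the study, Srf (1418255_s_at) read 7.25, 9.94 and 10.38 in KO MEFs and 6.59, 9.58 and 9.57 in WT MEFs. Its late difference was 0.45, and 1.36 on another probe set. Elk1 and Mrtfa, the gene of MAL, had late differences of 0.46 and -0.48, short of the threshold.

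Feedback genes of MAP kinase signalling went both ways. Of 17 tested, 3 were at 1 or above and 2 at -1 or below, with a median of 0.13. Dusp5, which inactivates nuclear ERK (1437199_at), read 5.60, 11.50 and 10.26 in KO MEFs and 5.26, 10.87 and 11.16 in WT MEFs, a late difference of -1.53. Dusp6, which inactivates ERK in the cytoplasm (1415834_at), read 7.70, 8.67 and 10.52 in KO MEFs and 9.95, 10.51 and 11.10 in WT MEFs, a late difference of 1.26. In KO MEFs Dusp5 was highest at 30 min and Dusp6 at 90 min. Dusp4 rose late in both genotypes, by 1.90 in KO and 3.38 in WT MEFs. Of 10 genes for mRNA decay and antiproliferative factors, 2 were higher and 1 was lower, with a median of 0.21. Btg2, a growth inhibitor that recruits deadenylases (1416250_at), stood at 6.09, 12.17 and 10.07 in KO MEFs and 8.11, 12.60 and 9.40 in WT MEFs. Zfp36l1, which destabilises mRNAs with AU-rich elements (1450644_at), had a late change of 0.90 in KO and -0.49 in WT MEFs.

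Among 20 chemokine and cytokine genes, 6 were at -1 or below (30.0%, against 2.78% of all genes) and 2 at 1 or above (10.0%, against 3.25%). Their median was -0.08, and 10 of the 20 lay above 0. Cxcl1, a neutrophil-attracting chemokine (1457644_s_at), read 6.40, 11.67 and 9.18 in KO MEFs and 12.60, 13.51 and 13.59 in WT MEFs. WT MEFs kept a level near the top of the scale, while KO MEFs showed a burst that declined, with a late difference of -2.57 (-2.99 and -2.03 on other probe sets). Il6, the cytokine interleukin 6 (1450297_at), rose late in both, with 3.15, 5.82 and 7.64 in KO MEFs and 3.54, 5.98 and 8.99 in WT MEFs, a late difference of -1.19. Lif, another ligand of the gp130 receptor family (1421207_at), read 4.01, 5.44 and 9.25 in KO MEFs and 5.99, 10.08 and 11.89 in WT MEFs, a late difference of 2.00. Ccl7 and Csf3 lay at -1.25 and -1.63, and Csf2 and Il33 at -1.03 and -1.04 with KO levels near or below the array medians. With low levels raised Csf2 came to -0.78, short of the threshold. Ccl5 lay at 1.63. Among 15 NF-kB feedback genes 2 were higher and 1 was lower, with a median of 0.46. Tnfaip3, the ubiquitin-editing inhibitor A20 (1433699_at), read 5.35, 9.45 and 9.55 in KO MEFs and 8.32, 10.84 and 9.84 in WT MEFs, a late difference of 1.10 (0.99 on another probe set).

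Promoters of 5 of these inducible genes, picked with values in view, are shown. Cxcl1, Il6, Lif and Tnfaip3 have NF-kB matches in this window but differed in late direction. Dusp5 has CArG matches only and shares no motif with them. Each promoter runs from 250 bases before to 50 after the start in RefSeq (build GRCm38.p6), 5' to 3'. Capitals mark matches on either strand to 7 motifs searched.
Cxcl1, chr5:90890995-90891294, plus strand: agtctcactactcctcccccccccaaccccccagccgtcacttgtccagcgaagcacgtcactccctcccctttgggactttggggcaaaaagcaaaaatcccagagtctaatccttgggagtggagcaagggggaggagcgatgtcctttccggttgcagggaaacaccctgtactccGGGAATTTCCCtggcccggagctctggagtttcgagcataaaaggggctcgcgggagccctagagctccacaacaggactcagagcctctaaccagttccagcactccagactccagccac
Il6, chr5:30012864-30013163, plus strand: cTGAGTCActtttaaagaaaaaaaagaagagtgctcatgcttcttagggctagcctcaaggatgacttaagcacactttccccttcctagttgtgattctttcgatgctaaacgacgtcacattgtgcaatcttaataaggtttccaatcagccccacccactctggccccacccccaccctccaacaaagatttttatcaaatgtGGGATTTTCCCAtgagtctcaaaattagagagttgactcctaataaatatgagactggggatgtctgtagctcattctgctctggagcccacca
Lif, chr11:4257318-4257617, plus strand: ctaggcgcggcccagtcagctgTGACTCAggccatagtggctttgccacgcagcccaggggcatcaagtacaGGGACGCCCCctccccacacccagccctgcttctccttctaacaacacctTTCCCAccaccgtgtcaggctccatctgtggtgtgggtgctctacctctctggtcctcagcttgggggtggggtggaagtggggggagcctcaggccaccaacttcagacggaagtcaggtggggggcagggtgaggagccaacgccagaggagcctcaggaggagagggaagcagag
Tnfaip3, chr10:19015361-19015660, minus strand: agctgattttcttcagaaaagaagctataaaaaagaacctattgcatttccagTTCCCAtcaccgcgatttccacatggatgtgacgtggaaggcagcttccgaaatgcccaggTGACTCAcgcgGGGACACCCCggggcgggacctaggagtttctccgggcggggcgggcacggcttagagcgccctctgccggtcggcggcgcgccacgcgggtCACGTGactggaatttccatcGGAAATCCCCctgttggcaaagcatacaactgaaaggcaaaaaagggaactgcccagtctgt
Dusp5, chr19:53528895-53529194, plus strand: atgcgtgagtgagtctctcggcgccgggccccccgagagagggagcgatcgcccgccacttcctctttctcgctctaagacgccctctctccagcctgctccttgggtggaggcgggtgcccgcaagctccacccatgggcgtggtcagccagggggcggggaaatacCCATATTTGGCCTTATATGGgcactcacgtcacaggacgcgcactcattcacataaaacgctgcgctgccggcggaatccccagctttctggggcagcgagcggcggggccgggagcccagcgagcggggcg
Of the 96 genes named by rule, 69 matched the promoter table, and the first promoter listed for a gene was used. The motifs were the CArG box of SRF, the NF-kB site (both by their usual consensus), the AP-1 site (TGANTCA), the CRE (TGACGTCA), an E-box (CACGTG), and the cores TGGGAA of RBPJ and GGAATG of TEAD. In Cxcl1 the capitals are 2 overlapping NF-kB matches, and in Dusp5 2 CArG boxes side by side. Il6 has an AP-1 match and an NF-kB match that overlaps an RBPJ core, Lif has 1 match each to AP-1, NF-kB and RBPJ, and Tnfaip3 has these and an E-box, with 2 NF-kB matches. An NF-kB match occurred in 8.18% of all 27025 promoters and a CArG match in 1.57%, and AP-1, CRE, E-box, RBPJ and TEAD matches in 7.93%, 1.88%, 7.24%, 25.5% and 14.6%. The share with an NF-kB match was 9.93% for slower falls, 10.9% for faster falls, 13.9% for stronger late rises and 15.3% for weaker ones, against 10.0% of tested genes. For CArG these shares were 2.13%, 2.73%, 2.78% and 2.78%, 2 or 3 genes each, against 1.40%. A match is a run of letters and not a shown site, and none of these shares carries a test.

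Among 19 EGF ligands and delayed secreted genes, 3 were at 1 or above and none at -1 or below, with a median of 0.09. Beside Hbegf and Ccn2 the third was Stc1, the hormone gene stanniocalcin 1, at 1.13. Its call was lost with the mean over its probe sets (0.46) and with quantile normalization (0.99). Of 22 delayed growth genes 5 were higher and 3 lower, with a median of 0.0. Tnfrsf12a, the receptor of the cytokine TWEAK (1418571_at), read 6.28, 8.46 and 11.29 in KO MEFs and 10.81, 11.67 and 12.47 in WT MEFs, a late difference of 2.03. Rrad, a small GTPase gene (1422562_at), read 6.75, 8.65 and 10.24 in KO MEFs and 8.73, 10.31 and 9.61 in WT MEFs. The kinase gene Sgk1 (1416041_at) read 10.36, 11.20 and 12.78 in KO MEFs and 11.28, 12.22 and 12.03 in WT MEFs. These genes were lower in KO at 30 min, and Rrad and Sgk1 passed the WT level by 90 min, with late differences of 2.29 and 1.77. Rgs2, a regulator of G protein signalling, stayed below the array medians in KO MEFs and had a late difference of -1.95 (-1.40 with low levels raised).

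Of the targets of the actin-MAL-SRF pathway, 3 of 31 were at 1 or above (9.68%, against 3.25% of all genes) and none at -1 or below (against 2.78%), with a median of 0.15. Filip1l (1428861_at) read 6.74, 8.83 and 8.71 in KO MEFs and 7.38, 8.52 and 6.41 in WT MEFs, a late difference of 1.99. Ankrd1, a stretch-responsive nuclear protein gene (1420991_at), read 4.63, 7.03 and 6.80 in KO MEFs and 9.17, 11.04 and 9.34 in WT MEFs, a late difference of 1.47. In both genes WT gave up its early rise and KO held it, while Fhl1 (1.04) rose late in KO MEFs by 0.89. Fhl1 had 0.20 on another probe set, 0.98 with quantile normalization and 0.97 with cyclic loess, so its call was lost there. Of 22 feedback genes of TGF-beta, BMP and Notch signalling, 6 were at 1 or above and 1 at -1 or below, with a median of 0.70. Snai1, a repressor of epithelial genes (1448742_at), read 5.72, 4.74 and 7.52 in KO MEFs and 6.32, 8.42 and 9.12 in WT MEFs, a late difference of 2.08. The Id genes, inhibitors of bHLH factors, split: Id1 and Id3 had late differences of 1.37 and 1.24, and Id2 -1.45. Tgif1 and Tgfb1 lay at 1.03 and 1.23. Calls were lost for Tgif1 with cyclic loess (0.98), and with the mean over probe sets for Tgfb1 (0.62) and Id2 (-0.61). Of 10 Socs and STAT feedback genes, Pim1 and Socs1 (1.05, and 0.89 with quantile normalization) were at 1 or above and none at -1 or below, with a median of 0.11.

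Starvation genes, which serum switches off, had 2 of 21 at 1 or above and 3 at -1 or below, with a median of 0.35. Arrdc4, an arrestin-like relative of Txnip (1426818_at), read 6.54, 5.90 and 4.42 in KO MEFs and 7.0, 6.67 and 6.91 in WT MEFs. Its late difference was -1.72, but 0.18 on another probe set, and that of Cdkn1b, a cell-cycle inhibitor gene, was -1.05 with 0.57 on another. Both higher genes, Tsc22d3 at 1.27 (0.68 as the mean over its probe sets) and Slc40a1 at 1.44, passed the filter through WT alone. Their KO levels lay below the array medians, where a fall could not show. Among 15 circadian clock genes none was higher and 1 was lower, the repressor gene Nfil3 at -1.31. Of 16 p53 pathway genes 2 were higher, namely Pmaip1, the death gene Noxa, at 1.85 and Tnfrsf10b at 1.78, and none was lower. Tnfrsf10b read 3.45 in WT MEFs at 90 min, below the array median, and its late difference was 1.31 with low levels raised. Pmaip1 (1418203_at) read 4.64, 8.03 and 8.51 in KO MEFs and 4.08, 5.70 and 4.33 in WT MEFs, so that an early rise was kept in KO and lost in WT MEFs. Chac1 was the 1 gene of 19 for ER stress and ATF4 past the threshold. Cholesterol synthesis (17 genes) and ribosomal protein genes (13) had none past it in either direction, with medians of 0.28 and 0.15. The interferon list had Stat2 at -1.90 as the 1 of 17, with -0.30 on another probe set. In the S phase and mitosis list of 23, Rrm2 lay at 1.26, with 0.04 and 0.44 on other probe sets, and Tyms at -1.15. Of 33 Mediator subunit genes, Med23 included, Med9 alone passed the threshold, at 1.13, with -0.49 on another probe set. Among markers of other cells, Cd14 of macrophages lay at 1.17, Flt1 of endothelium at 1.35 and Sox2 of neural progenitors at -1.62. Other probe sets of Flt1 gave 0.01, 0.22 and 1.09, and Sox2 lay below the medians in KO MEFs, with 2.99 and 2.87 at 30 and 90 min. In a culture of many cells, fewer cells of a kind and less RNA per cell cannot be told apart.

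**Figure D4:**
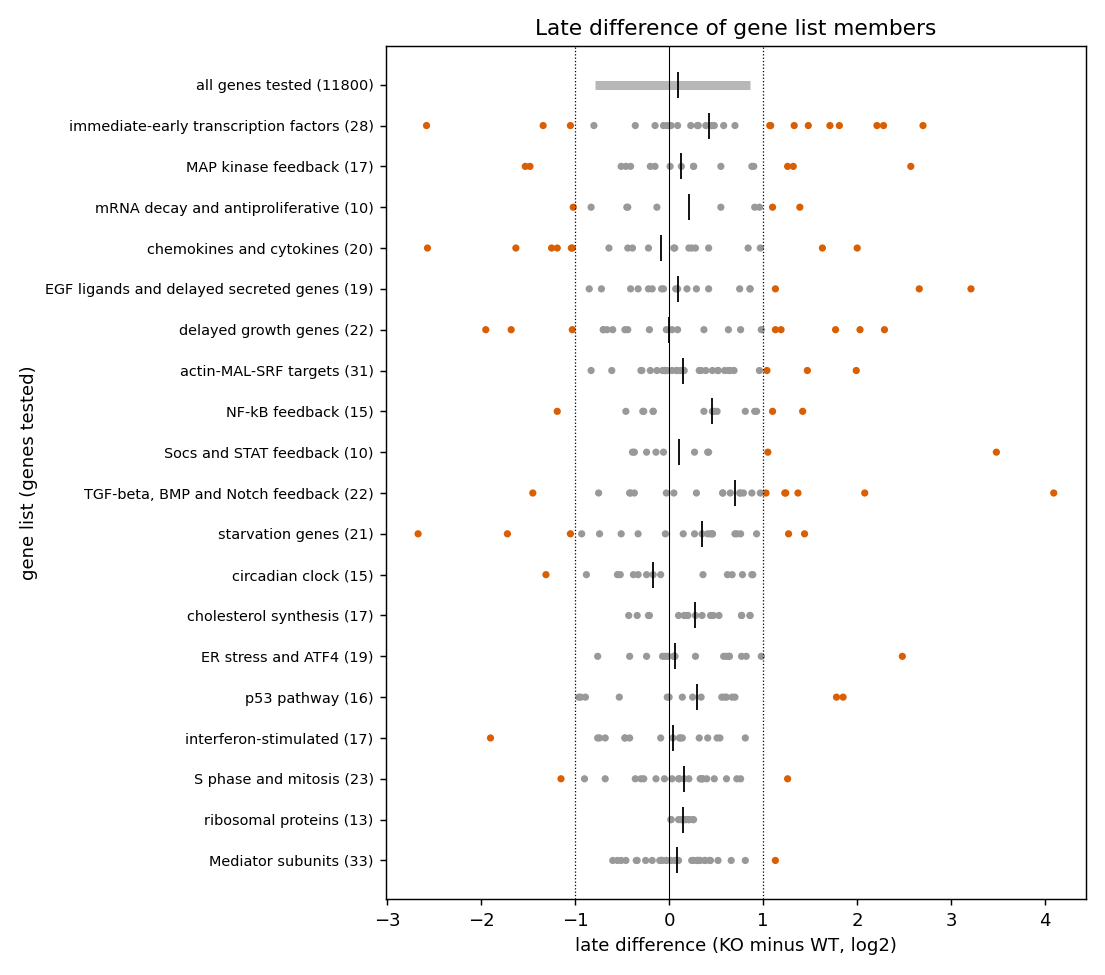
The late difference (KO minus WT, log2) of each tested member is plotted for 19 gene lists, with the list median as a black tick, members at least 1 in size in orange and the others in grey. The grey bar of the top line spans the 5th to 95th percentile of all genes, -0.79 to 0.86, and Hes1 at 4.09 is the member farthest to the right.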

How the data were processed

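Total RNA of 6 MEF cultures was labelled with biotin and hybridised to oligonucleotide arrays, per the labels' protocols. The deposited values were log2 expression values for 45101 probe sets. The submitters' processing notes name both RMA and MAS5, without role or version, and the scale was read from the values. How the arrays were normalized to each other remains not stated in any source used. A single symbol was given for 34945 probe sets, several for 932 (left out), none for 9160, and 64 were controls. Symbols were updated to RefSeq (GRCm38.p6) for 34741. Each of 18193 genes took the values of its brightest probe set, by mean level on all 10 arrays.

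Groups came from sample titles. Late changes and differences were computed in Python 3.11.15. The code was checked on simulated data with planted shifts well past the threshold and a narrower spread than here. That check gives no error rate for the counts. Alternative normalizations used limma 3.58.1 in R 4.3.3. No test was run, because no condition has a replicate, and an array gives no depth of reading. Genes named were the 8 largest differences per class still past 1 with low levels raised to the array median (clone and predicted names skipped), list members past 1, and Med23, Srf, Elk1 and Mrtfa. The members described at length were picked with values in view. The 25 lists had 461 entries, of which 439 had a named probe set and 394 were tested. Contrast, members and lists were chosen with earlier results of these data known.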

Additional observations from a re-analysis of the deposited data

Results flagged for a closer look

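Of the genes named by rule, 6 moved by at least 1 in opposite directions between 30 and 90 min in KO and WT MEFs. With 1 array per condition the difference was not tested. Upward in KO and downward in WT were Hes1 (late difference 4.09), Pim1 (3.48), Chac1 (2.48) and Dtx4 (2.44). Downward in KO and upward in WT were Pde4b (-3.74) and Pnrc2 (-3.06). On another probe set of Pnrc2 both genotypes fell, with late changes of -1.06 in KO and -0.46 in WT MEFs. Pim1 and Dtx4 also moved oppositely on another probe set, but the WT late changes there were -0.73 and -0.86, short of 1. For Pde4b another probe set repeated the opposite moves, with -2.17 in KO and 1.67 in WT MEFs. On a further one both genotypes rose, by 0.36 and 1.12. Over all 11800 genes 5 went up in KO and down in WT and 2 the other way. The fifth was Plekho1, named after its values were seen, with 4.19, 4.98 and 6.01 in KO MEFs at 0, 30 and 90 min and 6.09, 6.78 and 5.46 in WT MEFs, a late difference of 2.35.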

How the results depend on the processing

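No paired analysis was possible because each condition had 1 array, and none could be left out. Of 49 recomputed summary values 40 stayed within 1.5 times the reported count, or, for the median of the 110 early genes, within 0.445, the robust SD of the late difference over genes. With the mean over a gene's probe sets, lower genes numbered 209, slower falls 110, faster falls 85 and weaker late rises 63. With a filter at the 75th percentile of levels (6.55), which tests 7597 genes, higher genes numbered 240, lower genes 179, slower falls 109 and faster falls 71. These counts are out of fewer genes than the 11800 of the main setting, so they are not like for like. With late changes centred on their medians, chosen after seeing the data, slower falls numbered 112, against 151 faster falls. The order of these classes turned likewise with quantile normalization (120 and 133) and cyclic loess (133 and 145), and that of higher and lower genes too (300 and 358, 317 and 379). The median late difference of the early genes ranged from 0.45 to 0.76. Of the 88 genes named by rule that were recomputed (87 with the mean over probe sets, 74 with the stricter filter), none changed sign under these 7 alternatives. The 88 were named for being past 1, and changing the filter leaves a gene's values as they are. Those from the classes also had to stay past 1 with low levels raised, which is 1 of the 7. A kept sign was thus largely fixed by the choice. With the mean over probe sets, 72 of 87 named genes stayed past 1. Where another probe set lay above the filter, all such probe sets had the same sign in 128 of 171 higher and 94 of 137 lower genes, and 1 or more passed the threshold in 75 and 49. Levels below the array median occurred on at least 1 of the 4 arrays in 90 higher and 122 lower genes, and 348 and 279 genes stayed past the threshold with those levels raised.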

Other observations

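Genes induced in 1 genotype only at 30 min were followed to 90 min, with no test. Of 108 genes that rose by at least 1 in KO but not in WT MEFs, 26 stood at least 1 above 0 min in WT MEFs at 90 min and 7 rose there by at least 1 in the late phase. Of 85 genes that rose early in WT only, 27 stood at least 1 above 0 min in KO MEFs at 90 min and 18 rose there by at least 1 in the late phase. The choice of these genes and their late change use the same 30 min arrays. No share of all genes is given beside these counts.

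Several further early genes had late differences past the threshold and were named after their values were seen. Nab2, a corepressor of Egr factors, read 8.29, 9.68 and 11.26 in KO MEFs at 0, 30 and 90 min and 9.44, 10.60 and 9.97 in WT MEFs, a late difference of 2.21. Trib1, a pseudokinase gene, had a late change of 0.69 in KO and -0.84 in WT MEFs, and Map3k8, a kinase that feeds the ERK pathway, -0.20 and -2.07. Map3k8 read 4.53 and 4.33 in KO MEFs at 30 and 90 min, near the array medians, and 7.05 and 4.98 in WT MEFs. A fall as large as in WT could hardly show at such KO levels. Plk3, Epha2 and F3, the gene of tissue factor, each had a late difference of 1.14.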
